A study of Mus musculus with 6 samples.

Results

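Transcripts of cell cycle and DNA replication genes were examined in kidneys of 3 homozygous mutant mice and 3 wild-type mice, with 1 single-colour CodeLink oligonucleotide array per animal. The gene set held 39 named genes, listed as a family with earlier results of these data known. They were divided here into 8 genes of the G1 phase, 14 of DNA replication and nucleotide supply, and 17 of G2 and mitosis. A gene was represented by the probe annotated with its symbol alone that had the highest mean over the 6 arrays. By that rule 37 of the 39 genes were measured, among 18004 genes in all, and Tyms and Ccnb1 were not analysed here. Both genotypes were sampled as a part of a kidney, frozen once its blood had been rinsed out with saline. The sources used here do not name the mutated gene, the allele, the strain, or the mice's age and sex, so the mutation was not checked on its own transcript.

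Cells enter the division cycle when D-type cyclins activate Cdk4 and its relative Cdk6, which releases E2F factors and starts transcription of the replication genes. The Mcm2 to Mcm7 proteins form the ring-shaped helicase that is loaded on DNA in G1, and Cdk1 with the A- and B-type cyclins then drives the cell into mitosis. Most tubule cells of the adult kidney rest outside the cycle and can re-enter it after injury.

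A level is given as the log2 of a probe's intensity divided by the median of its array. A difference is the mutant mean less the wild-type mean on that scale, with its standard error from a limma fit over 25834 probes with 3 arrays per genotype. The words rose and fell are kept for a Benjamini-Hochberg adjusted p under 0.05 in that fit. A signal under 0.59 log2 is called dim and is treated here as not told from the background of the array. The limit was set from the distribution of the values and not from control spots. On each array 37.7% to 41.8% of values exceeded it. The thick ascending limb gene Umod lay between 7.38 and 8.04 in mutants and between 7.57 and 7.81 in wild type. Xist was above 2 log2 on replicate 1 of both genotypes, at 3.00 in the mutant and 2.21 in wild type, where the Y-linked Eif2s3y was at the floor of -1.79, while the other 4 arrays had Eif2s3y between 3.01 and 3.46. Of all probe calls 76.4% were higher in mutant kidney, against 61.5% after quantile normalization and 62.9% after cyclic loess.

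Of the 34 cell cycle genes that could be tested, 2 rose in mutant kidney and 0 fell. The genes that rose were Ccnd2, a D-type cyclin, and Mcm3, a subunit of the replicative helicase. Among all 14796 genes tested, 5.68% rose and 1.59% fell, so that the share of cell cycle genes called was close to that of the array. At an unadjusted p under 0.05, 10 of 34 members were higher and 0 lower by the same limma fit, against 14.6% and 6.31% of all genes tested. The median member differed by 0.37 log2, against 0.08 over all genes tested. Of the member differences 27 of 34 were positive, against 8509 of 14796 over all genes tested. In 7 of the 34 genes every mutant array lay above every wild-type array, against 17.8% of genes on the array, and in 0 did every mutant array lie below, against 8.89%. Of the 23 members above the low-signal limit in both genotypes 2 rose and 0 fell, against 7.25% and 2.5% of such genes on the array. Without wild-type replicate 3, 6 members rose, and without any one of the other arrays only Ccnd2 did. RNA was taken from whole tissue, so a change in the number of cells of a type and a change in RNA per cell cannot be told apart.

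**Figure D1:**
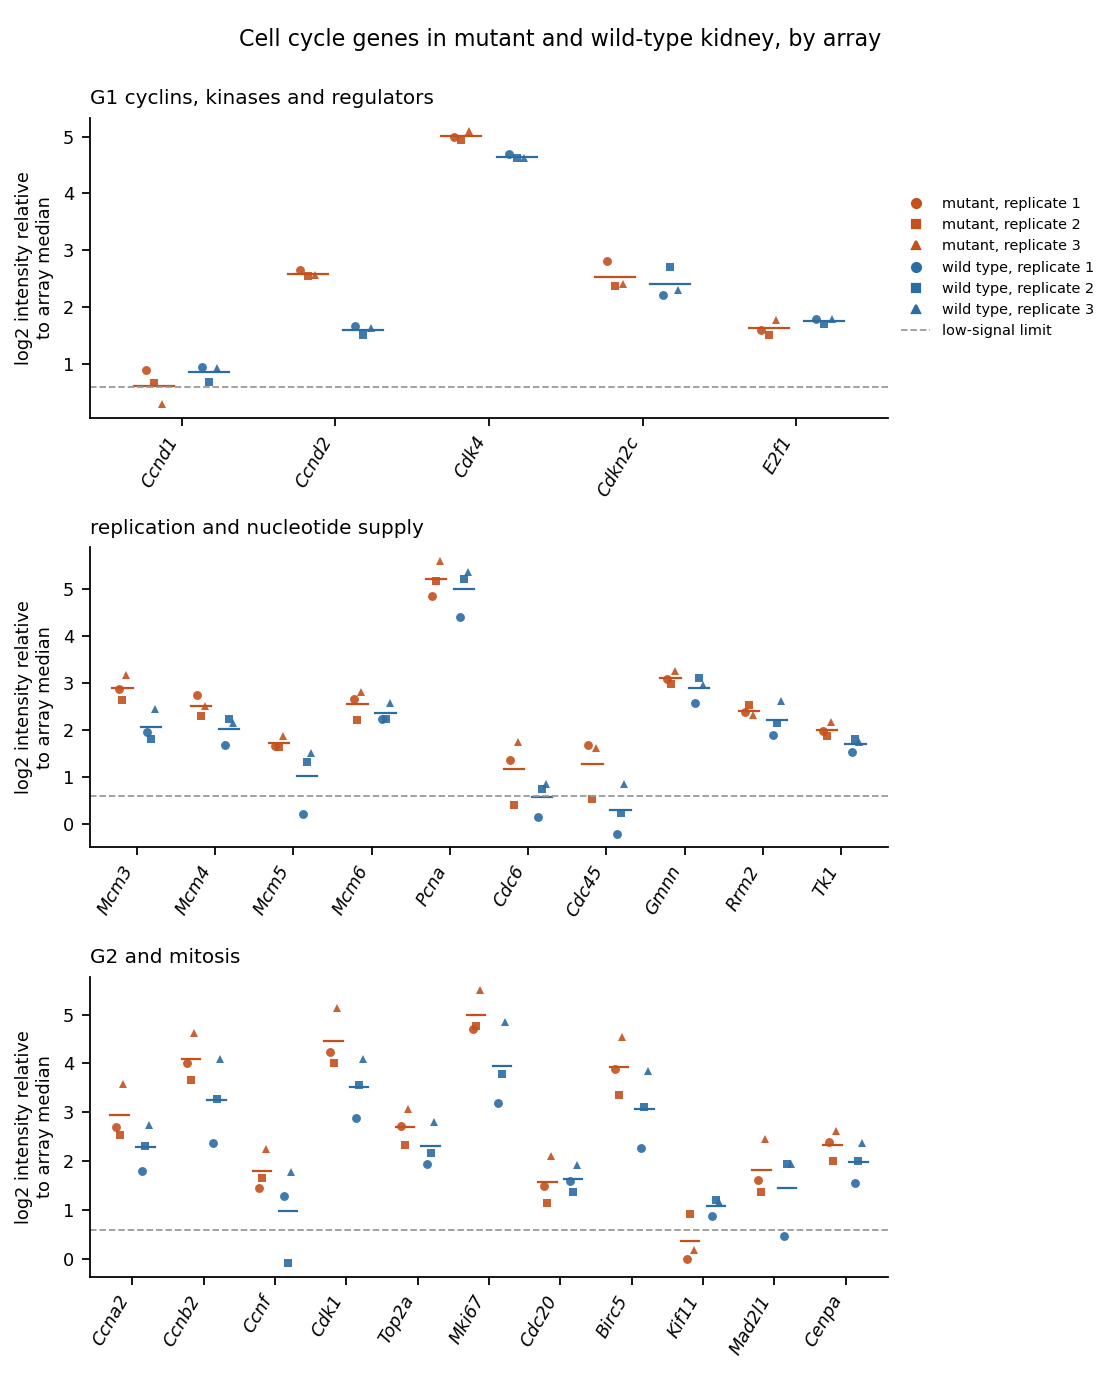
Each point is 1 array, as log2 intensity relative to the array median, with mutants in orange to the left and wild type in blue to the right of each gene and the bar at the genotype mean. The 26 tested genes with a mean above the low-signal limit (dashed) in at least 1 genotype are shown. The genotypes stand apart in Ccnd2, and in the G2 and mitosis panel replicate 3 (triangles) is the highest array of its genotype in nearly every gene.

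**Figure D2:**
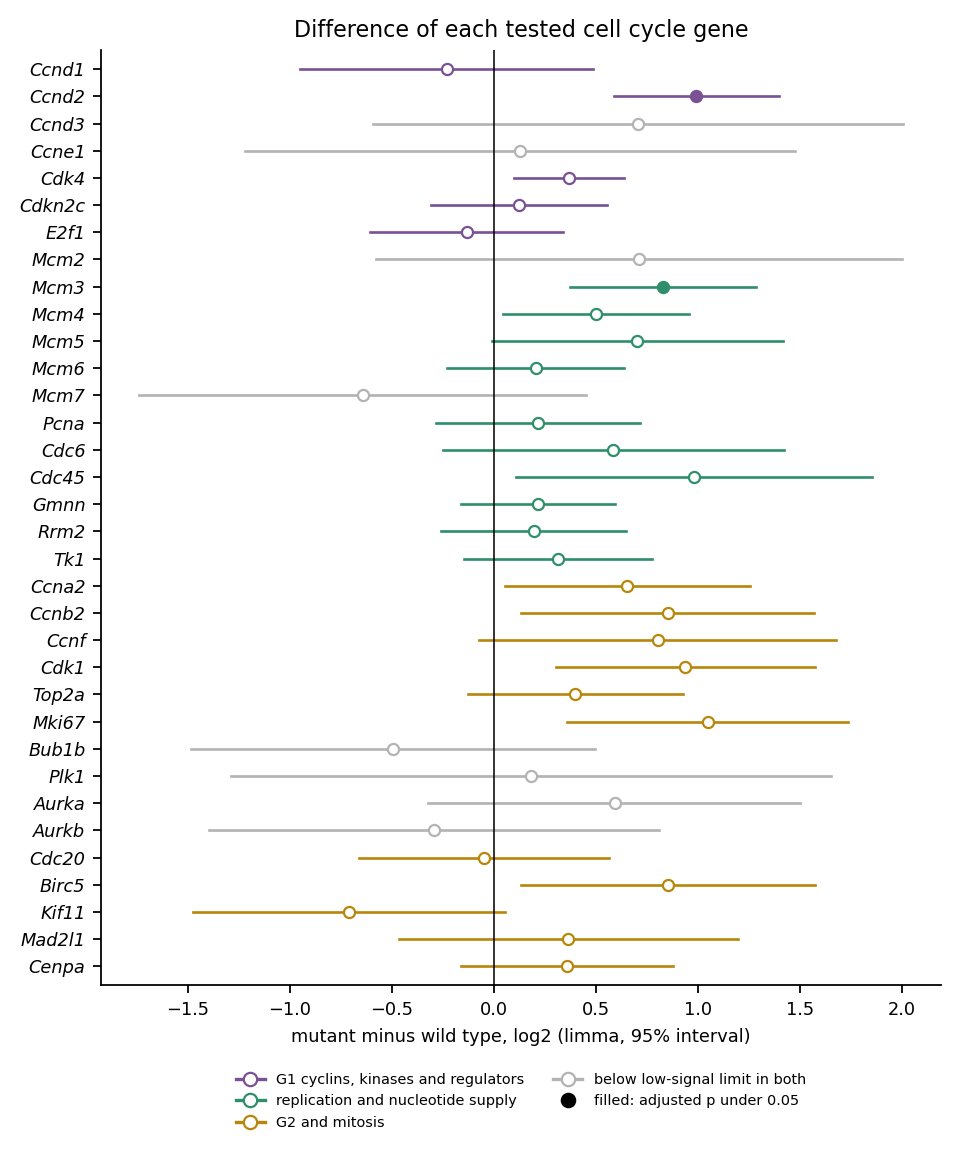
Each row is 1 of the 34 tested genes, with its difference as mutant minus wild type in log2 and the 95% interval of the limma fit. Filled points passed the adjusted threshold, and grey rows were dim in both genotypes. Ccnd2 and Mcm3 are the 2 filled points.

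Ccnd2 encodes cyclin D2, which binds Cdk4 and Cdk6. Its level was 2.65, 2.55 and 2.56 on the mutant arrays, against 1.66, 1.5 and 1.62 on the wild-type arrays. The genotypes were separated by more than the spread of either, and no array stood out. Ccnd2 rose by 0.99 ± 0.19 log2 units, or 1.99-fold (adjusted p = 0.00608, 95% interval 0.59 to 1.40). When the variance was modelled without an intensity trend the call was lost (adjusted p = 0.0716), and it held in each of the other alternatives run, the fits without 1 array among them.

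The other D-type cyclins gave little signal. Ccnd1, the cyclin D1 gene, was at 0.89, 0.67 and 0.29 in mutants, against 0.95, 0.68 and 0.92 in wild type, close to the limit on several arrays. Its difference was -0.23 ± 0.33 and did not pass. Ccnd3, for cyclin D3, and Ccne1, for a cyclin that partners Cdk2 at the start of replication, were dim on all 6 arrays. Ccne2, the second E-type cyclin, was dim on all arrays and too dim to be tested.

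Cdk4, the kinase that cyclin D2 activates, was at 5.0, 4.94 and 5.09 in mutants, against 4.69, 4.62 and 4.62 in wild type. Every mutant array was above every wild-type array, but the difference of 0.37 ± 0.12 did not pass after adjustment (adjusted p = 0.127). Its 95% interval ran from 0.10 to 0.64 and overlapped that of Ccnd2, which ran from 0.59 to 1.40. The size of the change in Cdk4 was not tested against that in Ccnd2. Cdkn2c, which encodes the Cdk4 inhibitor p18, overlapped between genotypes and differed by 0.12 ± 0.20. A second Cdkn2c probe differed by 0.58 ± 0.33 and did not pass (adjusted p = 0.418). E2f1, an activating E2F factor, differed by -0.13 ± 0.22.

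Among the replication genes 1 of 12 tested members rose and 0 fell, against 5.68% and 1.59% of all genes tested. All 8 members above the limit in both genotypes had a positive difference, with a median of 0.27. Of such genes on the array 5479 of 9045 had a positive difference, with a median of 0.09. Mcm3 was at 2.87, 2.63 and 3.15 in mutants, against 1.94, 1.80 and 2.43 in wild type. The genotypes did not overlap, although mutant replicate 2 and wild-type replicate 3 lay only a little apart. Mcm3 rose by 0.83 ± 0.21 log2 units (adjusted p = 0.0357, 95% interval 0.37 to 1.28). The call was lost in each fit without mutant replicate 1, 2 or 3 or wild-type replicate 1 or 2 (adjusted p between 0.0538 and 0.155), and after quantile normalization or cyclic loess (adjusted p = 0.0805 and 0.0800). It was also lost with no floor, with array weights, with no intensity trend and when replicate 1 of both genotypes was left out (adjusted p = 0.0526, 0.0642, 0.223 and 0.152).

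The rest of the helicase was uneven. Mcm4 was at 2.74, 2.29 and 2.5 in mutants, against 1.66, 2.22 and 2.14 in wild type. It differed by 0.50 ± 0.21 without overlap and did not pass (adjusted p = 0.238). Mcm5 was at 1.65, 1.63 and 1.87 in mutants, against 0.21, 1.32 and 1.51 in wild type, where replicate 1 was far below the other two and also below the limit. Its difference was 0.70 ± 0.33 (adjusted p = 0.305). Mcm6 overlapped and differed by 0.21 ± 0.20, while Mcm2 and Mcm7 were dim on all arrays. The Mcm subunits thus had 1 call among the 6 genes measured, where 5.68% of all genes tested rose. So few genes cannot be set against that share.

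None of the loading and firing factors passed. Cdc45, a partner of the helicase at active forks, was at 1.67, 0.52 and 1.61 in mutants, against -0.21, 0.23 and 0.84 in wild type. Mutant replicate 2 lay among the wild-type arrays, and the difference of 0.98 ± 0.41 did not pass (adjusted p = 0.228). Only 1 of its wild-type arrays was above the limit and their mean was below it, so its size is uncertain. The 95% interval for Cdc45 ran from 0.107 to 1.855 log2. With the wild-type mean set to the limit the fold was 1.60, which is an estimate and not a lower bound. Cdc6, which helps to load the helicase, had a wild-type mean below the limit too and differed by 0.59 ± 0.39. Mutant replicate 2 again lay inside the wild-type range. The Cdc6 difference did not pass (limma, adjusted p = 0.509), and its 95% interval ran from -0.25 to 1.42. With the wild-type mean set to the limit the fold was 1.49, also not a lower bound. Gmnn encodes geminin, which blocks a second round of loading, and differed by 0.22 ± 0.18.

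Genes for the replication clamp and for nucleotide supply differed little. Pcna, the sliding clamp, was at 4.85, 5.17 and 5.59 in mutants, against 4.40, 5.20 and 5.35 in wild type, and differed by 0.22 ± 0.23 with overlapping genotypes. Its 95% interval ran from -0.28 to 0.72. Rrm2, the regulated subunit of ribonucleotide reductase, differed by 0.19 ± 0.21, and Tk1, thymidine kinase, by 0.31 ± 0.21 without overlap. A second Tk1 probe overlapped and differed by 0.06 ± 0.33. Rrm1, the large reductase subunit, was dim on all arrays and not tested.

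Of 15 tested G2 and mitosis genes 0 rose and 0 fell by limma after adjustment, while 5 were higher and 0 lower at an unadjusted p under 0.05, a level that 14.6% and 6.31% of all genes tested reached in those directions. The 10 members above the limit in both genotypes had a median difference of 0.73, the largest of the 3 phases among such members. Of their differences 9 of 10 were positive, against 5479 of 9045 such genes on the array. Over all tested members, dim ones included, the median was 0.40 for G2 and mitosis and 0.41 for replication, so that order did not hold. The arrays of 1 genotype also differed most in this phase, with a median SD of 0.49 log2 in mutants and 0.69 in wild type, against 0.18 and 0.20 over all genes above the limit.

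Mki67, whose product Ki-67 marks cycling cells, was at 4.70, 4.77 and 5.50 in mutants, against 3.19, 3.79 and 4.84 in wild type. Wild-type replicate 3 lay above mutant replicates 1 and 2, so the genotypes overlapped. The difference of 1.05 ± 0.32 did not pass (adjusted p = 0.0843). Cdk1, the kinase of mitotic entry, was at 4.22, 4.0 and 5.14 in mutants, against 2.89, 3.56 and 4.09 in wild type. Wild-type replicate 3 again lay within the mutant range, and the difference was 0.94 ± 0.30 (adjusted p = 0.0963). Without wild-type replicate 3, Mki67 and Cdk1 passed (adjusted p = 0.00421 and 0.0374), and so did Ccnb2 and Birc5 (adjusted p = 0.0292 and 0.0449). With the sex pattern of Xist and Eif2s3y as a covariate, an alternative chosen after seeing the data, Mki67 and Cdk1 also passed (adjusted p = 0.0273 and 0.0432). With no filter on dim probes Mki67 passed (adjusted p = 0.0445) and Cdk1 did not (adjusted p = 0.0557). With the replicate number as a block, Mki67, Cdk1, Ccnb2, Birc5 and Ccna2 passed, where 7.33% of all genes tested rose. The labels do not state that same-numbered arrays are paired. Of the 22 limma fits per gene, the main fit among them, Mki67 passed in 4 and Cdk1 in 3. Ccnb2 and Birc5 passed in 2 each and Ccna2 in 1. The highest adjusted p in those fits was 0.38 for Mki67, 0.391 for Cdk1, 0.539 for Ccnb2, 0.57 for Birc5 and 0.607 for Ccna2.

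The mitotic cyclins and Birc5 also had overlapping genotypes. Ccnb2, for cyclin B2, was at 4.01, 3.67 and 4.62 in mutants, against 2.38, 3.28 and 4.09 in wild type, a difference of 0.85 ± 0.33 (adjusted p = 0.197). Birc5 encodes survivin, a subunit of the chromosomal passenger complex, and was at 3.89, 3.35 and 4.54 in mutants, against 2.28, 3.10 and 3.84 in wild type. It also differed by 0.85 ± 0.33 (adjusted p = 0.197). In both genes replicate 3 was the highest array of each genotype, and wild-type replicate 3 lay above mutant replicate 2. Ccna2, for cyclin A2, differed by 0.66 ± 0.28 (adjusted p = 0.245).

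The remaining mitotic genes with signal did not pass either. Ccnf, for the ubiquitin ligase subunit cyclin F, differed by 0.80 ± 0.41, with 1 wild-type array below the limit. Top2a, the topoisomerase that untangles chromosomes, differed by 0.40 ± 0.24, and Cenpa, the centromeric histone, by 0.36 ± 0.24. The checkpoint gene Mad2l1 differed by 0.37 ± 0.39, and Cdc20, an activator of the anaphase-promoting complex, by -0.05 ± 0.29. Kif11, a spindle motor, was at 0.01, 0.93 and 0.19 in mutants, against 0.89, 1.21 and 1.16 in wild type. The difference was -0.71 ± 0.36 and did not pass, and only 1 mutant array was above the limit, so its size is uncertain. A second Kif11 probe differed the other way, by 0.94 ± 0.63, with means below the limit in both genotypes. Neither probe passed, so no direction is given for Kif11.

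Mutant replicate 3 and wild-type replicate 3 were the highest arrays of their genotypes in 9 of the 10 mitotic genes above the limit. Over all 8586 genes above the limit that held for 12.5%. Mutant replicate 2 was the lowest mutant array in 8 of the 10, against 28.4% of genes, and wild-type replicate 1 the lowest wild-type array in 8 of the 10, against 63.8%. Taken as the median distance of the 10 genes from their own means over the 6 arrays, the mitotic level was 0.22, -0.11 and 0.90 log2 in mutants, against -0.95, -0.36 and 0.31 in wild type. The same medians for the 8 replication genes were 0.16, 0.05 and 0.33 in mutants, against -0.48, -0.04 and 0.05 in wild type. The 5 G1 genes stayed between -0.07 and 0.17 in mutants and between -0.18 and -0.05 in wild type.

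Wild-type replicate 1 was also low over all 8586 genes above the limit, at -0.18 log2 by the same measure. The other wild-type arrays were at -0.01 to 0.06. Quantile normalization brought that value to -0.01 and left the mitotic genes at -0.79 on wild-type replicate 1 and at 0.86 on mutant replicate 3.

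**Figure D3:**
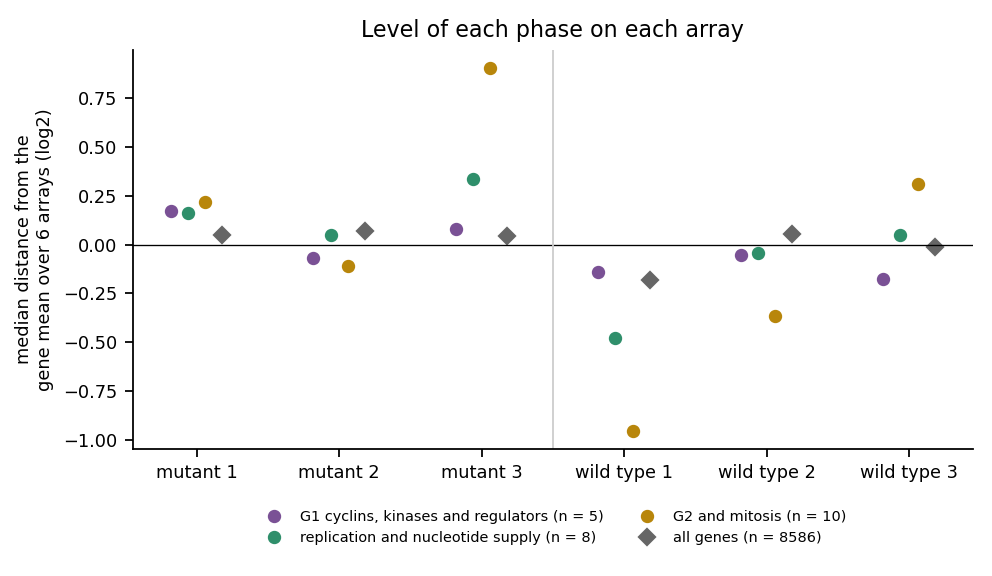
Each point is the median, over the genes of a phase that were above the low-signal limit, of the distance in log2 between the array and the gene's mean over the 6 arrays, with mutant arrays left and wild-type arrays right. Diamonds give the same for all 8586 genes. The mitotic genes span -0.95 to 0.90 and the G1 genes -0.18 to 0.17.

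Proliferation genes are also expressed by blood-derived cells, so marker levels were set beside the mitotic genes. The summed intensity of 19 measured macrophage and myeloid markers was 313, 220 and 215 times the array median in mutants, against 56.5, 60.6 and 59.1 in wild type. Of the 19, 13 rose, against 5.68% of all genes tested, with Cd14 higher by 2.42 log2 units and C1qa by 2.26. Every mutant array had a higher sum than every wild-type array, with the highest on mutant replicate 1. The median level of the mitotic genes overlapped between genotypes and was highest on mutant replicate 3, at 0.90 log2. The 17 measured T, B and NK lymphocyte markers summed to 53.0, 32.7 and 31.5 in mutants, against 24.2, 22.5 and 19.7 in wild type. Of the 15 tested 2 rose, Cd3d and Ighm. Of the 17 measured 10 were dim in both genotypes, and the B cell gene Cd79a had signal on all 6 arrays. The 4 measured red cell markers summed to 2.97 and 11.8 on mutant replicates 1 and 3, against 9.18, 15.4 and 12 in wild type, with 0 called. Alas2 made up most of the sum on mutant replicate 3 and on each wild-type array, and not on mutant replicate 1. It had no value on mutant replicate 2, where the other markers summed to 3.89. In the myeloid and red cell lists some markers were dim in both genotypes though other members had signal. They were Adgre1, Itgam and Laptm5 among 19 myeloid genes and Klf1 and Epb42 among 4 red cell genes.

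Markers of resident cells moved in both directions, where 5.68% of all genes tested rose and 1.59% fell. The 13 fibroblast and pericyte markers summed to between 531 and 564 in mutants, against 150 to 182 in wild type, and 12 rose. The 11 proximal tubule markers summed to between 310 and 329 in mutants, against 503 to 554 in wild type, and 5 fell. Of 10 measured tubular injury markers 8 were tested and 7 rose, and of 9 measured endothelial markers 7 were tested and 1 rose. Of 13 distal nephron, collecting duct and glomerulus markers 12 were tested and 1 fell, and of 8 markers of other organs 6 were dim. Means were under the limit in both genotypes for Slc5a2 of the proximal tubule list and Podxl of the glomerulus. The same held for Cdh5 and Flt1 of the endothelial list and for Krt8, Sox9 and Cd44 of the injury list. The part of all these cell types in the cell cycle values was not tested.

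The dim members add no direction. Besides those named, Bub1b and Bub1, kinases of the spindle checkpoint, Plk1, Aurka and Aurkb, kinases of the spindle and of chromosome segregation, had a mean under the limit in mutants and in wild type alike, which makes 11 of the 37 measured genes. Aurka was at 0.09, 0.28 and 0.70 in mutants, against -0.47, 0.07 and -0.32 in wild type, without overlap, but only 1 of the 6 values was above the limit. Plk1 exceeded the limit on mutant replicate 3 alone. Bub1, Ccne2 and Rrm1 were left out of the fit by the filter on dim probes.

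The promoters of 3 members are shown because Mcm3 carried the call of the replication genes, and Cdk1 and Ccnb2 the pattern of the mitotic genes. Each window runs from 250 bases before to 50 bases after the start of the gene, 5′ to 3′ along the gene, from RefSeq on GRCm38.p6, all on the minus strand: chr1:20820263-20820562 for Mcm3, chr10:69352863-69353162 for Cdk1 and chr9:70421505-70421804 for Ccnb2. Capitals mark matches on either strand to an E2F-type motif (TTCGCGC or TTGGCGC), to the cell cycle homology region motif (CHR, TTTGAA) and to CCAAT.
Mcm3: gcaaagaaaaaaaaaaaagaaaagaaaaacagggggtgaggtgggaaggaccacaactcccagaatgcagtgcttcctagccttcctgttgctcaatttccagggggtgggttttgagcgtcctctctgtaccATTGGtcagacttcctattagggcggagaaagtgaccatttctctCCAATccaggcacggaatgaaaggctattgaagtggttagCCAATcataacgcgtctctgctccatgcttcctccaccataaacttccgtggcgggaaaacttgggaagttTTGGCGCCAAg
Cdk1: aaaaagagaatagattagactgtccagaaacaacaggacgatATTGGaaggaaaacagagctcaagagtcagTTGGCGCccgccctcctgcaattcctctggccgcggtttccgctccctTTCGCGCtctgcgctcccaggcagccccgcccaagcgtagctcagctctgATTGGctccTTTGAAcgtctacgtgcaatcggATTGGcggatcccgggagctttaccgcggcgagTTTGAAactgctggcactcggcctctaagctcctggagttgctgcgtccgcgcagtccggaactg
Ccnb2: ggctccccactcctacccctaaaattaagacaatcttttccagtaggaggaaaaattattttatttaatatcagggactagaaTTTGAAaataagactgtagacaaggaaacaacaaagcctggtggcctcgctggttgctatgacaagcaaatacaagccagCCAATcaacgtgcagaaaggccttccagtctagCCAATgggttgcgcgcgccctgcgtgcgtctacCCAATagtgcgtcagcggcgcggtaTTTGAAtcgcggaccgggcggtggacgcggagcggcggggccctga

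The Mcm3 window held an E2F-type match on each strand, which overlap at the end of the window, beside 3 CCAAT matches and 0 CHR matches. The Cdk1 window held 2 E2F-type, 2 CHR and 3 CCAAT matches, and the Ccnb2 window 0, 2 and 3 of the same. Windows were found for 30 of the 37 measured members, 33 windows in all since some genes had more than 1. CHR matches occurred in 11 of 14 windows of the G2 and mitosis genes (78.6%), in 2 of 12 of the replication genes and in 0 of 7 of the G1 genes, against 17.9% of all 32851 promoter windows of the same length. E2F-type matches occurred in 4 of 12 windows of the replication genes, in 2 of 14 of the mitotic genes and in 0 of 7 of the G1 genes, against 3.89% of all windows. CCAAT was found in 12 of 14 mitotic and 10 of 12 replication windows, and in 2 of 7 G1 windows, against 37.4% of all. A match describes the letters of the window and is not a measured site.

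Further genes of the cycle were read from 3 wider lists of 142 symbols, of which 113 were tested. By limma 6 rose and 0 fell, against 5.68% and 1.59% of all genes tested, so the share that rose was near that of the array. At an unadjusted p under 0.05, 20 were higher and 2 lower, against 14.6% and 6.31%. The median difference of these genes was 0.25 log2. Of 37 tested G1 and checkpoint genes 5 rose, of 37 further replication genes 1 rose, and of 39 further mitotic genes 0 rose. The lists were written with earlier results of these data known.

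The Cdkn1 and Cdkn2 genes encode inhibitors of cyclin-dependent kinases. Of the 6 measured, 3 rose and 0 fell, against 5.68% and 1.59% of all genes tested. The group was drawn from lists written with earlier results of these data known. Cdkn2c and Cdkn2d did not pass, the second with a difference of 0.15 ± 0.17, and Cdkn2a was dim. Cdkn2b, which encodes p15, an inhibitor of Cdk4 and Cdk6, was at 3.04, 2.92 and 2.86 in mutants, against 1.29, 1.96 and 1.65 in wild type. The genotypes were far apart, and Cdkn2b rose by 1.31 ± 0.21 log2 units (adjusted p = 0.00158). Cdkn1a encodes p21, a broader inhibitor induced by p53. It was at 1.21, 1.08 and 1.44 in mutants, against -0.25, -0.55 and -0.86 in wild type, where all 3 arrays were dim, and was at least 1.57-fold higher (adjusted p = 0.0132). The Cdkn1a call was lost without mutant replicate 1, 2 or 3 (adjusted p = 0.0522, 0.0531 and 0.0740).

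Cdkn1c, for the inhibitor p57, was at 3.98, 4.0 and 3.91 in mutants, against 3.42, 3.51 and 3.39 in wild type. The arrays of a genotype lay close together, and the gene rose by 0.52 ± 0.13 (adjusted p = 0.0333), a call that was lost in each of the 6 fits without 1 array (adjusted p between 0.0510 and 0.139) and after quantile normalization or cyclic loess (adjusted p = 0.0783 and 0.0634). Btg1, an antiproliferative gene, was at 5.21, 4.93 and 4.80 in mutants, against 4.26, 4.33 and 4.35 in wild type. It rose by 0.67 ± 0.14 (adjusted p = 0.0109), and not without mutant replicate 1 (adjusted p = 0.0549).

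Other genes that rose act with the kinases or copy DNA marks. Cks1b, a small kinase-binding subunit needed to degrade p27, was at 2.75, 2.96 and 3.00 in mutants, against 1.62, 2.26 and 2.05 in wild type. It rose by 0.93 ± 0.20 (adjusted p = 0.0141), and not without mutant replicate 2 or 3 (adjusted p = 0.0747 and 0.0655). Dnmt1, the methyltransferase that copies DNA methylation at the fork, was at 3.71, 3.84 and 3.78 in mutants, against 2.95, 2.97 and 3.27 in wild type. Its increase was 0.71 ± 0.15 (adjusted p = 0.0107), lost without mutant replicate 2 (adjusted p = 0.0640). When the variance was modelled without an intensity trend, Cdkn1a alone of these 6 genes passed (adjusted p = 0.0395), and the p of Cdkn2b was then 0.0726.

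**Figure D4:**
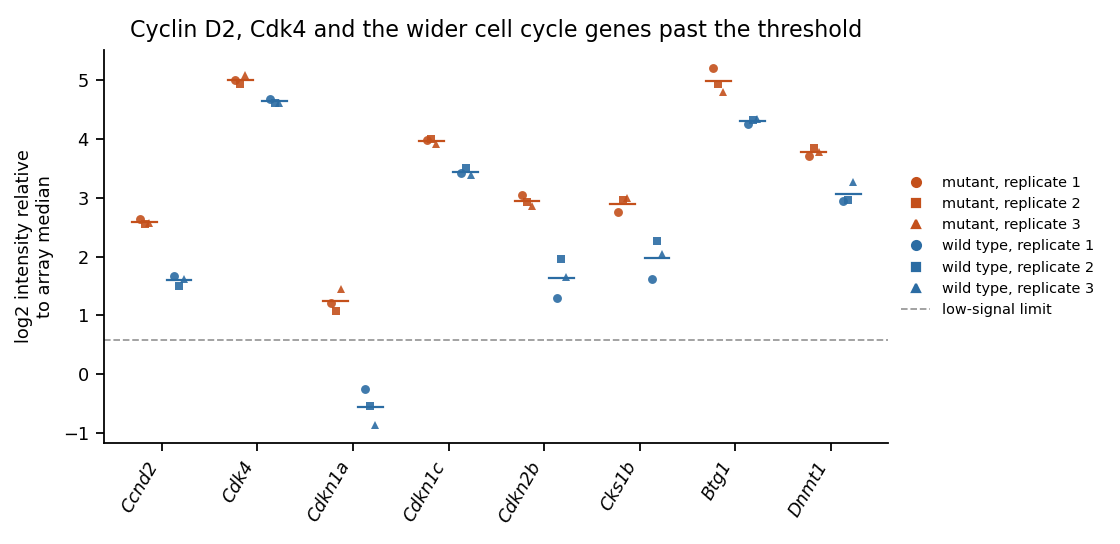
Each point is 1 array, as log2 intensity relative to the array median, for Ccnd2, Cdk4 and the 6 genes of the wider lists that passed, with mutants in orange to the left and wild type in blue to the right of each gene. In every gene shown all 3 mutant arrays lie above all 3 wild-type arrays, and Cdkn1a is below the low-signal limit (dashed) in wild type.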

How the data were processed

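The values were intensities deposited by the authors on a linear scale, 1 per probe and array, with array medians of 0.9935 to 0.9975 and values from -1.02 to 951. The sources used here do not state how they were scanned, background-corrected and scaled. CodeLink labelling is per the labels' protocols. Each array was divided by its median, values of 0 or less (2.66% to 3.46% of an array) were dropped, a floor was set at the 10th percentile (0.290), and the result was put on the log2 scale. The fit used probes present on 2 or more arrays of each genotype, less the dimmest 25%. The low-signal limit of 1.50 is the mode of the linear values (0.519) plus 3 spreads below it (0.328), set after seeing values.

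The comparison used limma 3.58.1 (R 4.3.3; lmFit, eBayes with intensity trend, two-sided). The code was tested on simulated data. Precision is limited by the number of arrays. The members, lists and rules were chosen with earlier results of these data known. The rule for named genes took every member, with values per array at least for the called members, Ccnd2 and Mcm3. Of each wider list it took up to 6 called genes per direction whose groups did not overlap. Of 21590 probes with 1 symbol, 21462 matched RefSeq by gene identifier. The labels give separate animals per array. Alternatives covered scaling, low values, filters, variance models, a replicate block, thresholds, probe choice and arrays left out.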

Additional observations from a re-analysis of the deposited data

How the results depend on the processing

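Over all probes, 1392 passed, 191 with no intensity trend, 678 at a threshold of 0.01, 905 with only replicates 2 and 3 of each genotype, and 743 to 1230 in limma fits without 1 array. Cell cycle genes higher in mutant kidney numbered 2. They numbered 1 after quantile normalization, cyclic loess, no floor, array weights, a threshold of 0.01, or with only replicates 2 and 3, 0 with no intensity trend, 3 with no filter on dim probes (Mki67 added), 4 at a threshold of 0.1 or with sex as a covariate, and 1 to 6 without 1 array. Cell cycle genes lower numbered 0 in every alternative run.

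With the replicate number as a block, 7 members rose (Ccnd2, Mcm3, Ccna2, Ccnb2, Cdk1, Mki67 and Birc5), where 7.33% of all genes did, and 1856 probes passed. Over 22989 probes the deviations of same-numbered arrays correlated at 0.0719, 0.0199 and 0.0699 for replicates 1, 2 and 3, so the numbers were not taken to pair the animals. All 6 arrays deviated most like the array of their own number, a hint from the data and not from the design.

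Single genes changed sign in 9 cases, none past the threshold. Cdkn2c differed by -0.0027 after quantile normalization, -0.0239 after cyclic loess, -0.11 with only replicates 2 and 3, and -0.0151 to 0.28 without 1 array. Mad2l1 differed by -0.0279 with only replicates 2 and 3 and by -0.12 to 0.61 without 1 array. Pcna differed by -0.0753 to 0.40 and Cdc20 by -0.32 to 0.17 without 1 array. The cause was not tested. With 3 arrays per genotype and dim signals for 11 of 37 genes, small differences were not detectable.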

Other observations

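Among the further mitotic genes, the 2 with an unadjusted p under 0.05 for a lower level are named after their values were seen. Spc25, a kinetochore subunit, was at 2.70 and 3.10 on the mutant arrays with a value, against 4.82, 3.20 and 3.58 in wild type, and differed by -0.97 ± 0.35 without passing (limma, adjusted p = 0.167). Pttg1, which encodes securin, the inhibitor of separase, was at 1.07 and 0.28 on the mutant arrays with a value, against 1.40, 1.91 and 1.49 in wild type, and differed by -0.92 ± 0.35 without passing (limma, adjusted p = 0.183). Cdk6, the other kinase partner of cyclin D2 and likewise chosen after its values were seen, was at 1.80, 2.04 and 2.01 in mutants, against 1.49, 1.09 and 0.65 in wild type, a difference of 0.87 ± 0.27 without overlap that did not pass (limma, adjusted p = 0.0891).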
